A study of Zea mays with 12 samples.

Results

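The genes described here had higher transcript levels in aleurone than in starchy endosperm of the maize kernel, in the inbred line B73 and in the naked endosperm mutant nkd alike. They were selected on these transcript levels: a gene was included when its lowest of 3 aleurone libraries was at least 2 times its highest of 3 starchy endosperm libraries, separately in each genotype, and its mean over the 6 aleurone libraries was at least 10 RPM. RPM are the reads of a gene scaled to 1000000 reads over all genes of the library. This held for 288 of 39656 genes (0.726%), or 2.60% of the 11081 genes past the level of 10 RPM. Past that level 614 genes met the threshold in B73, whatever their values in nkd, and 745 met it in nkd, whatever their values in B73, so the 288 genes are 46.9% of the first set and 38.7% of the second. The reverse pattern, by the same thresholds, was found for 7 genes.

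The RNA came from cells cut by laser from sections of kernels 15 days after pollination, with 3 replicates for each cell type of each genotype, 12 libraries in all. B73 served as wild type. The nkd phenotype needs loss of both Nkd1 and Nkd2, duplicates that encode ID domain transcription factors, and the mutant stock was a backcross into B73. All kernels were fixed and embedded before sectioning, and all captured RNA was amplified linearly, steps shared by the 4 groups. The labels call the replicates biological. The sources used here do not state the alleles, the number of kernels or ears behind a library or how areas were picked for capture, and p-values therefore measure the spread between libraries. In captured tissue, fewer cells of a type and less RNA per cell cannot be told apart.

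The aleurone is the outer, epidermis-like layer of the endosperm. It stores oil in oil bodies and minerals and protein in vacuoles, stays alive in the dry seed, and secretes hydrolases when the grain germinates, whereas the starchy endosperm below it fills with starch and zein and dies. Aleurone cells derive from the same triploid tissue as the starchy endosperm and take their identity from their position at its surface.

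The libraries held 9570998 to 64000784 reads over genes. Nkd2 had 23.1, 17.6 and 16.6 RPM in nkd aleurone against 52.3, 73.1 and 55.3 for the wild type (log2 difference -2.11, limma, adjusted p = 0.00259). Nkd1 had 141, 128 and 128 against 115, 144 and 183 (-0.59, adjusted p = 0.212). Neither is among the 288 genes. Zeins, the storage proteins of the starchy endosperm, took 13.9% to 26.6% of the B73 aleurone libraries and 0.178% to 0.903% of those of nkd. B73 starchy endosperm replicate 2 was the highest of its group for 263 of the 288 genes, and nkd starchy endosperm replicate 3 for 233. The number of genes moved with these libraries: without the first 544 genes met it, without the second 409 and without both 956, each time including all 288. Without B73 aleurone replicate 1 it was 506, with 286 of the 288 among them.

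In sum over the 288 genes, the aleurone libraries held 3.65%, 3.45% and 6.12% of reads in B73 and 7.36%, 5.34% and 5.60% in nkd. The starchy endosperm libraries held 0.282%, 0.991% and 0.234% in B73 and 0.190%, 0.442% and 0.826% in nkd. These shares follow from the choice of genes and are given as a description. Within B73 aleurone, replicate 3 was the highest library for 245 of the genes. In nkd aleurone the highest library was replicate 3 for 143, replicate 1 for 85 and replicate 2 for 60.

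**Figure D1:**
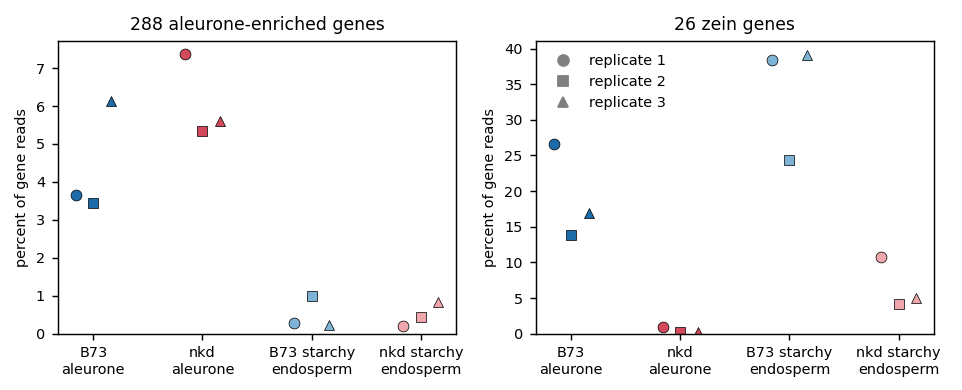
Percent of gene reads taken by the 288 aleurone-enriched genes (left) and by 26 zein genes (right) in each library; each point is 1 library and its shape gives the replicate. B73 starchy endosperm replicate 2 holds 0.991% on the left, above 0.282% and 0.234% in its group, and the zein share of aleurone is 13.9% to 26.6% in B73 and 0.903% or less in nkd.

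The size of the enrichment varied widely among the genes. The ratio of the mean aleurone to the mean starchy endosperm level had a median of 7.94 in B73 (2.71 to 45.6) and 10.3 in nkd (2.89 to 120). It was at least 10 in 87 genes in B73, in 153 in nkd and in 72 in both. The ratio was larger in nkd than in B73 for 203 of the 288 genes. These ratios are of the contrast that chose the genes and are given as a description. The same count over all genes past 10 RPM was not made. RPM also depend on the zein share, which in starchy endosperm was 24.3% to 39.1% in B73 and 4.18% to 10.7% in nkd. The part of this share in the ratios was not tested. The mean level over the 6 aleurone libraries ranged from 10 to 5669 RPM, with a median of 38.3. Just inside the threshold lay gst5, CPK21 and KIN13, with a lowest-to-highest ratio of 2.00, 2.01 and 2.02 in the genotype where it was smaller. Just outside it lay cyclin9, ARF2 and Mlo4 at 1.98, 1.97 and 1.96.

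**Figure D2:**
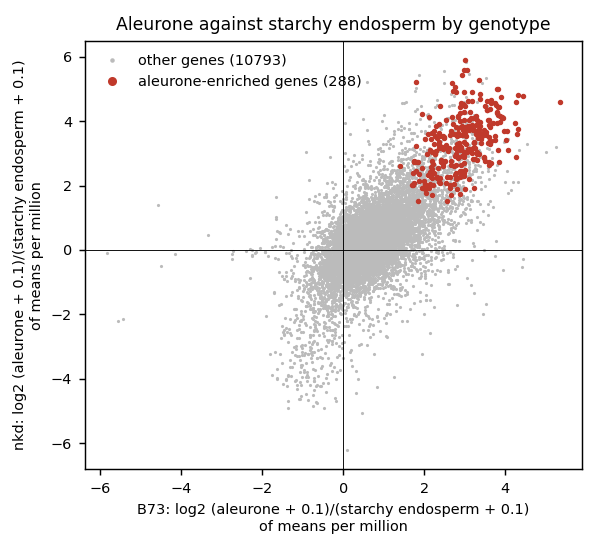
Log2 ratio of the mean aleurone to the mean starchy endosperm level, with 0.1 RPM added to each, in B73 (horizontal) and nkd (vertical), for 11081 genes with a mean of at least 10 RPM in aleurone. The 288 aleurone-enriched genes are in red and lie at positive ratios on both axes, as the rule requires.

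In nkd aleurone, the epidermal regulator ocl1 and the leaf polarity gene mwp1 rose, the sucrose synthase gene sus2 and the glutathione S-transferase genes gst5 and gst31 fell, and the 5 oil body protein genes did not pass the test. Of the 288 genes, 121 differed between nkd and B73 aleurone, 89 higher and 32 lower in nkd (limma on log2 of normalised reads plus 1, Benjamini-Hochberg adjusted over all genes). Over all 26496 genes tested, the background was 14.6% called, 6.32% higher and 8.28% lower. The corresponding shares of the 288 genes were 42.0%, 30.9% and 11.1%, and over all genes past 10 RPM they were 15.2%, 7.72% and 7.51%. The median log2 difference was 0.49 over the 288 genes and 0.04 over all genes tested. The genotypes did not overlap in 165 of the genes (57.3%), against 33.7% of all genes. Because the rule asks for a higher aleurone level in nkd, a gene no higher in nkd aleurone than in nkd starchy endosperm could not enter. All 288 genes passed the filter of the test on low values. The level of 10 RPM, in contrast, is a mean over both genotypes, and a gene that reached it through 1 genotype only had to differ: 54 of the 89 higher genes had a B73 mean under 10 RPM and 9 of the 32 lower genes an nkd mean under 10 RPM. Over all genes past 10 RPM this was so for 460 of 855 higher and 362 of 832 lower genes. The counts and the median are therefore a description of the selected genes. The median standard error of the difference was 0.39 for the 288 genes and 0.36 for all genes past 10 RPM.

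The count of 121 was 77 without B73 aleurone replicate 1 and 27 (16 higher and 11 lower) in 1 fit over all 12 libraries. On the RPM scale, without the authors' scaling, 114 were higher and 22 lower, and the median of all genes shifted to 0.33. The summed level of 33 starchy endosperm markers, 31 of them past 10 RPM and none among the 288, was 143116 to 273023 RPM in B73 aleurone and 2092 to 9389 in nkd aleurone. It was 251168 to 399623 in B73 and 47021 to 111587 in nkd starchy endosperm. The part of these transcripts in the genotype differences was not tested.

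**Figure D3:**
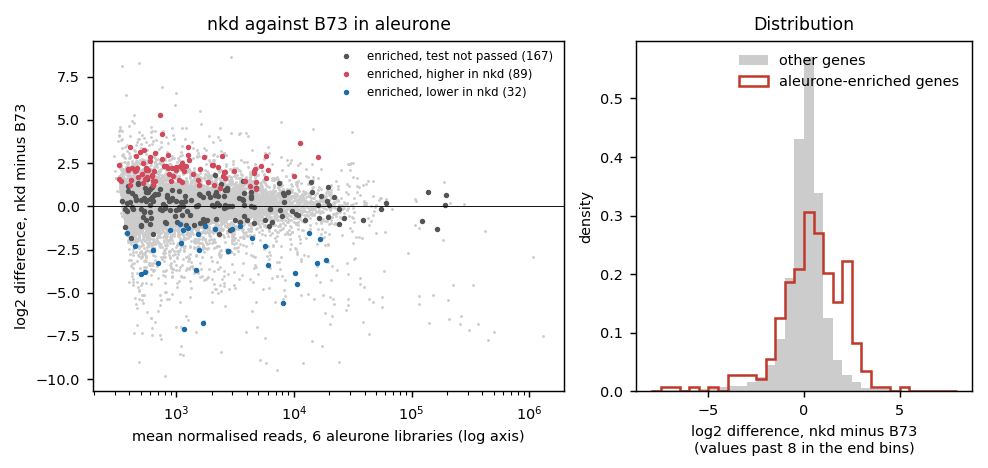
Left, log2 difference between nkd and B73 aleurone against mean normalised reads for genes with at least 10 RPM in aleurone, with the 288 aleurone-enriched genes coloured by the result of the limma test (89 higher, 32 lower, 167 not passing). Right, the distribution of the same differences, with the aleurone-enriched genes (red outline) having a median of 0.49.

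Of the 288 genes 61 have a name in the reference table, of which 13 rose, 9 fell and 39 did not pass the test in aleurone. ZCN10 is counted under each of its identifiers, GRMZM2G059358 and GRMZM2G152689, both among the falls. The genes below are described by role. Levels are in RPM, listed by replicate, and the tests are on the normalised scale.

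The groups of related genes in the next paragraphs (oil body proteins, HD-ZIP IV, cyclins, kinesins, sucrose synthases, glutathione S-transferases) were put together after values were seen. Of 6 genes named as oleosins or oil body associated proteins and past 10 RPM, 5 are among the 288. Oleosins coat the surface of the oil droplet and keep droplets from merging. The oleosin gene ole1 (GRMZM2G337229) had 5438, 3263 and 7906 RPM in B73 aleurone, while nkd aleurone held 3327, 1972 and 3675. In starchy endosperm it had 181, 735 and 246 in B73 and 16.7, 134 and 265 in nkd. The genotypes overlapped in aleurone on this scale and not on the normalised scale, and the highest starchy endosperm library was B73 replicate 2. Its genotype difference in aleurone was -1.31 on the log2 scale and did not pass (limma, adjusted p = 0.125; DESeq2, adjusted p = 0.0128).

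A second oleosin gene, ole17 (GRMZM2G480954), had 1024, 346 and 992 in B73 aleurone, with 712, 478 and 624 in nkd aleurone. It had 27.7, 119 and 10.8 in B73 and 2.37, 21.7 and 42.4 in nkd starchy endosperm. Its nkd libraries lay within the range of B73 in aleurone (log2 difference -0.70, limma, adjusted p = 0.414). The gene named oleosin (GRMZM2G333069) had a smaller gap between tissues, with 73.1, 68.7 and 192 in B73 aleurone and 11, 25.6 and 16.7 in B73 starchy endosperm.

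OBAP1A and OBAP2A encode oil body associated proteins. OBAP2A had 712, 1208 and 1563 in B73 aleurone, with 1296, 1092 and 468 in nkd aleurone, against 73.8, 347 and 69.6 and 16.5, 40.6 and 104 in the starchy endosperm of B73 and nkd. OBAP1A had 218, 108 and 287 in B73 aleurone, with 184, 106 and 136 in nkd aleurone, and 31.0 at most in starchy endosperm. The genotypes overlapped in aleurone for both genes. The sixth gene, OBAP2B, fell short of the threshold with a lowest-to-highest ratio of 1.61 in B73 and 1.78 in nkd.

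Fatty acid synthesis was represented by ACC1, named for acetyl-CoA carboxylase, which makes the malonyl-CoA for chain elongation. ACC1 (GRMZM5G858094) had 140, 166 and 158 in B73 aleurone, with 337, 314 and 333 in nkd aleurone, against 36.4, 68.1 and 23.8 and 79.6, 153 and 108 in starchy endosperm. Its genotypes did not overlap in aleurone, but the difference of 0.63 did not pass (limma, adjusted p = 0.186; 0.041 on the RPM scale). The desaturase gene fad7 had 34.0, 31.7 and 36.8 in B73 and 19.4, 25.8 and 24.1 in nkd aleurone. It was lower in nkd by the test (log2 difference -1.03, limma, adjusted p = 0.0472). That call was lost with any 1 library left out (adjusted p = 0.0683 to 0.177) and with the replicate number as a block (0.099). The 24 names of the oil list matched only 9 genes. Of the 8 genes of this list past 10 RPM, 4 are among the 288 (ole1, ole17, ACC1 and fad7). Outside it, dgat1-2, a diacylglycerol acyltransferase, had a ratio of 1.86 in B73 and 6.70 in nkd.

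Genes of seed maturation were also present. The 14 names of this list matched 10 genes, and of the 5 past 10 RPM 3 are among the 288. PER1 (GRMZM2G129761), a peroxiredoxin of seeds, had 337, 541 and 787 in B73 aleurone, with 825, 375 and 351 in nkd aleurone, and 101 at most in starchy endosperm. Its genotype difference in aleurone was -0.59 (limma, adjusted p = 0.422). A second gene matched by the name per1, GRMZM2G104394, is not among the 288 and lay under 10 RPM in every aleurone library. That gene was lower in nkd aleurone (-4.41, limma, adjusted p = 0.00164) and nkd starchy endosperm (-4.78, adjusted p = 0.0297). The storage globulin gene glb1 (GRMZM2G067919) had 117, 41.2 and 129 in B73 and 105, 53.6 and 52.5 in nkd aleurone, and 12.6 at most in starchy endosperm.

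The late embryogenesis abundant gene mlg3 differed widely between B73 libraries. It had 11.2, 5.84 and 94.7 in B73 aleurone, so that replicate 3 alone stood near the nkd values of 114, 74.6 and 85.2. In starchy endosperm it had 1.78 at most in B73 and 7.75 at most in nkd. Its difference of 1.83 did not pass (limma, adjusted p = 0.172) and did without B73 replicate 3 (2.94, adjusted p = 0.012). The maturation regulator vp1 is not among the 288, with a ratio of 1.09 in B73 and 8.02 in nkd.

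The 16 names of the pigment list matched 13 genes, and 1 of the 8 past 10 RPM met the rule. This was fht1, flavanone 3-hydroxylase, with 17.4, 23.4 and 30.4 in B73 and 54.1, 26.6 and 38.5 in nkd aleurone, and 6.41 at most in starchy endosperm. The genotypes overlapped. The lists for phytate, for gibberellin and ABA, for peroxide and redox and for lipid breakdown had no gene among the 288, where 2, 2, 8 and 4 of their genes passed 10 RPM. The 10, 22, 13 and 10 names of these lists matched only 3, 9, 10 and 5 genes, so the counts cover the matched names alone. PER1, dhar3, gst5, gst31 and mips2, which are among the 288, stand in other lists or in none. The catalase gene cat2 and the malate synthase gene mas1 met the threshold in B73 with ratios of 2.37 and 3.10 and not in nkd, where the ratios were 0.26 and 0.12.

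HD-ZIP IV proteins are plant homeodomain factors expressed in outer cell layers, and the maize OCL genes belong to them. Of 5 HD-ZIP IV genes past 10 RPM, 4 are among the 288, and of these 2 rose in nkd aleurone and 2 did not pass. Over all 288 genes 30.9% rose. The gene ocl1 (GRMZM2G026643), known from the outer layer of the maize embryo and endosperm, had 17.7, 25.3 and 54.2 in B73 and 117, 106 and 163 in nkd aleurone. Its starchy endosperm levels were 1.14, 6.90 and 1.04 in B73 and 0.660, 3.52 and 10.5 in nkd. It rose 3.18-fold in nkd aleurone (log2 difference 1.67 ± 0.37 SE, limma, adjusted p = 0.0163), but not without B73 replicate 1 (adjusted p = 0.0723) or 2 (0.0685).

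HDZIV6_OCL6 had 16.5, 43.7 and 86.1 in B73 and 280, 255 and 192 in nkd aleurone. Its starchy endosperm levels were 4.96 at most in B73 and 0.155, 3.61 and 42.0 in nkd, so that nkd replicate 3 stood alone. It rose 4.39-fold in nkd aleurone (limma, adjusted p = 0.0158), and missed the threshold without B73 replicate 1 or 2 or without nkd replicate 1 or 2 (adjusted p = 0.0506 to 0.0535). The gene ocl5 had 28.9, 39.9 and 60.6 in B73 and 84.6, 130 and 147 in nkd aleurone, without overlap, and a difference of 1.05 that did not pass (limma, adjusted p = 0.0557; 0.0306 with DESeq2). HDZIV8_OCL8 had a difference of 0.93 (limma, adjusted p = 0.207; 0.0411 without B73 replicate 3). The fifth gene, ocl4, was outside the rule in B73, where its ratio was 0.46, and inside it in nkd, where it was 8.52.

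The gene mwp1, milkweed pod1, is a KANADI factor of leaf polarity. It had 41.2, 30.7 and 47.8 in B73 and 353, 169 and 351 in nkd aleurone, and 11.6 and 33.8 at most in starchy endosperm. It rose 5.10-fold in nkd aleurone, all 3 nkd libraries lying above all 3 of B73 (log2 difference 2.35 ± 0.39 SE, limma, adjusted p = 0.00428). SCR, the GRAS factor scarecrow, known from the root ground tissue, had 52.2, 68.8 and 155 in B73 and 110, 179 and 197 in nkd aleurone, with overlap. EREB85, named for the ethylene response factor family, had 48.8, 57.4 and 131 against 191, 199 and 224, a difference of 1.05 that did not pass (limma, adjusted p = 0.0822; 0.0364 without B73 replicate 3).

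The factors bZIP7 and MYB83 were among the 8 named genes with the largest enrichment. MYB83 had 21.1, 17.9 and 39.3 in B73 and 23.4, 14.1 and 14.9 in nkd aleurone, against 3.62 at most in starchy endosperm. Its lowest aleurone library was 4.95 times the highest of starchy endosperm in the genotype where that ratio was smaller. For bZIP7 that ratio was 4.12, with 44.2, 41.2 and 110 in B73 and 61.7, 57.8 and 123 in nkd aleurone. Neither passed the genotype test in aleurone (limma, adjusted p = 0.129 for MYB83 and 0.923 for bZIP7).

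Genes of cuticle and cell wall were few by name. AD1, adherent1, of cuticular wax synthesis, had 24.4, 60.3 and 87.2 in B73 and 49.1, 37.9 and 23.4 in nkd aleurone, and 12 at most in starchy endosperm. It had a difference of -0.98 (limma, adjusted p = 0.179). CSLD1, a cellulose synthase-like gene, had 12.1, 9.17 and 12.9 in B73 and 38.9, 47.9 and 189 in nkd aleurone. It rose 4.55-fold (limma, adjusted p = 0.0227), but not without B73 replicate 2 (adjusted p = 0.0819) or 3 (0.0693). The 18 names of the epidermis and cuticle list matched 12 genes. Of the 6 genes of this list past 10 RPM, 3 are among the 288 (ocl1, ocl5 and AD1). The wax gene gl1 had a ratio of 0.91 in B73 and 1.18 in nkd.

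**Figure D4:**
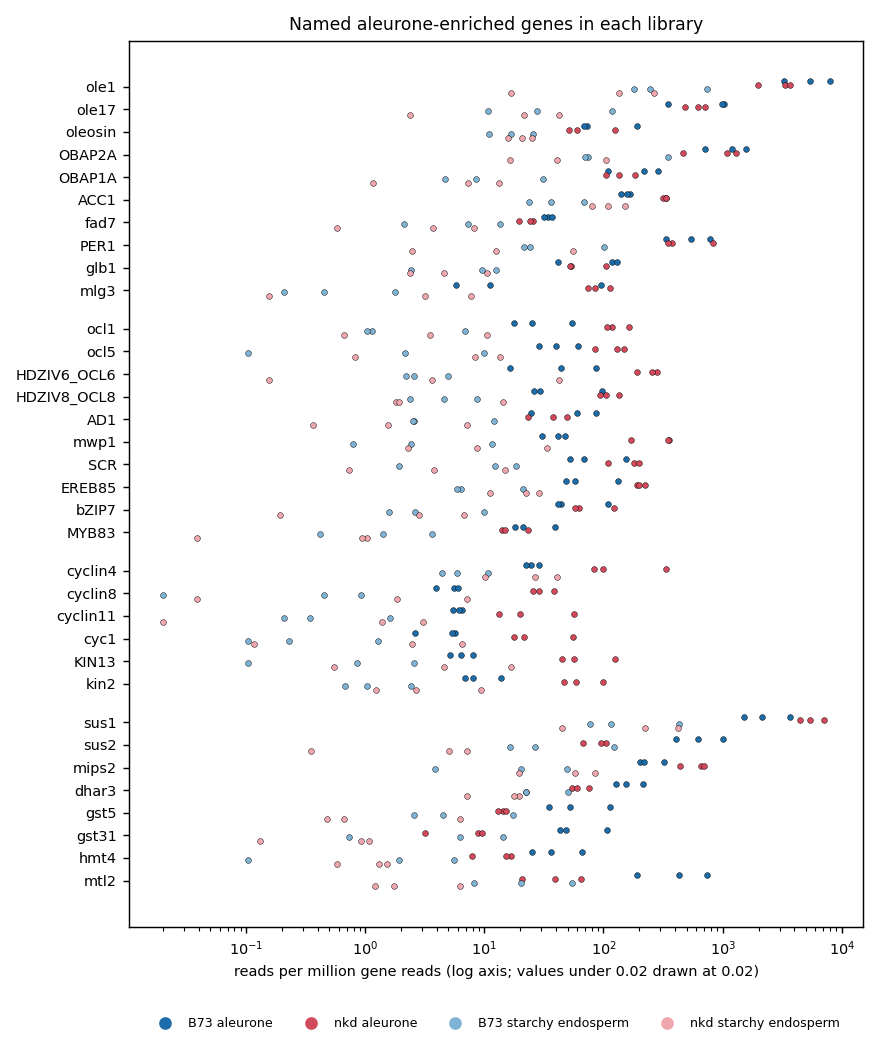
RPM (log axis) of named aleurone-enriched genes in each of the 12 libraries, with 1 point for each library coloured by group. Aleurone points lie to the right of starchy endosperm points of the same genotype in every line, as the rule requires. Points of nkd aleurone lie to the right of B73 aleurone for the division genes (such as KIN13, 5.17 to 8.02 against 45.1 to 125). Of the division genes all but cyclin4 had a B73 mean under 10 RPM and so reached that level through nkd. For gst31 nkd aleurone lies to the left (43.0 to 107 against 3.19 to 9.63), with every nkd library under 10 RPM.

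Cyclins drive the cell cycle through their kinases, and kinesins move cargo and organise the spindle along microtubules. Of 6 genes named as cyclins and past 10 RPM, 4 are among the 288, and of 10 kinesin genes 2 are. Of these 6 genes cyclin4 alone had a mean of 10 RPM or more in B73 aleurone, so the others reached that level through nkd, and no count of rises is given for the families.

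The gene cyclin8 (GRMZM2G138886) had 3.94, 5.54 and 6.01 in B73 and 25.4, 28.7 and 38.8 in nkd aleurone, and 0.918 at most in B73 starchy endosperm. It was 4.35-fold higher in nkd aleurone without overlap (log2 difference 2.12 ± 0.30 SE, limma, adjusted p = 0.00223). The gene cyc1 had 2.64, 5.64 and 5.36 against 21.4, 17.9 and 55.0, and rose 4.64-fold (limma, adjusted p = 0.00887). The gene cyclin4 had 24.6, 22.5 and 28.6 against 83.0, 99.7 and 337, and rose 4.08-fold (limma, adjusted p = 0.019), but not without B73 replicate 2 (0.0719) or 3 (0.0616). The fourth, cyclin11, had 5.44, 6.45 and 6.14 against 20, 13.4 and 56.2, and a difference of 1.58 that did not pass (limma, adjusted p = 0.0501; 0.0388 with edgeR and 0.0042 with DESeq2). In all 4 cyclins, and in KIN13 and kin2, nkd replicate 3 was the highest.

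The kinesin gene KIN13 (GRMZM2G034828) had 5.17, 6.35 and 8.02 in B73 and 45.1, 56.4 and 125 in nkd aleurone. Its starchy endosperm levels were 2.56 at most in B73 and 16.9 at most in nkd. It rose 7.71-fold in nkd aleurone (log2 difference 2.95 ± 0.37 SE, limma, adjusted p = 0.00134), the largest rise among the 61 named genes. The gene kin2 (GRMZM2G136838) rose 5.14-fold, from 6.92, 8.06 and 13.7 to 46.6, 58.7 and 99.2 (limma, adjusted p = 0.00273). The adaptor gene ada2, of histone acetylation, rose 6.18-fold, from 3.2, 3.12 and 5.47 to 21.0, 42.3 and 38.4 (limma, adjusted p = 0.0023). It lay under 10 RPM in every B73 aleurone library and so also reached that level through nkd. In 1 limma fit over all 12 libraries cyclin8, cyc1, KIN13 and ada2 did not pass (adjusted p = 0.434, 0.263, 0.104 and 0.126), nor did mwp1, ocl1, HDZIV6_OCL6, CSLD1, GH3, AUX9, gst5, hmt4, ZCN10 or fad7 (0.0676 to 0.526) or rop6 (0.0881).

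The summed level of 7 basal transfer layer markers, from cells at the base of the endosperm, was 9.96, 18.4 and 289 RPM in nkd aleurone replicates 1, 2 and 3, and 2.08, 19.5 and 18.0 in B73 aleurone. It was 15.4, 34.7 and 483 in nkd starchy endosperm. The part of such cells in the levels of replicate 3 was not tested. Without nkd aleurone replicate 3, 113 of the 288 genes passed, 84 higher and 29 lower, and of the 22 named genes that had passed only fad7 was lost.

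The genes GH3, AUX9 and rop6 also rose in nkd aleurone. GH3, of a family that joins auxin or jasmonate to amino acids, had 35.7, 62.7 and 45.2 in B73 and 568, 193 and 196 in nkd aleurone. It rose 4.34-fold (limma, adjusted p = 0.015), but not without B73 replicate 1 (0.0564) or 3 (0.0612). AUX9 rose 4.65-fold, from 4.77, 11.1 and 9.07 to 111, 42.5 and 26.8 (limma, adjusted p = 0.0225). Its B73 aleurone mean was under 10 RPM, so it reached that level through nkd. It did not pass without B73 replicate 1 (0.0841) or 3 (0.0676) or without nkd replicate 2 (0.0508). The gene rop6, of a small GTPase family of cell polarity and named after its values were seen, had 22.2, 22.8 and 35.0 against 76.3, 129 and 189, and rose 3.43-fold (limma, adjusted p = 0.0102).

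Both genes with a name of sus and a number are among the 288. Sucrose synthase genes under other names were not searched for, so this does not cover the whole family. Sucrose synthase splits sucrose into fructose and UDP-glucose. For sus1 (GRMZM2G152908) the levels were 2120, 1500 and 3686 in B73 and 7123, 5434 and 4424 in nkd aleurone, and 433 at most in starchy endosperm. All nkd libraries lay above all of B73 on this scale, but they overlapped on the normalised scale and the difference of 0.83 did not pass (limma, adjusted p = 0.315). For sus2 (GRMZM2G318780) the levels were 621, 402 and 1004 in B73 and 106, 66.8 and 96.2 in nkd aleurone. It fell 9.86-fold in nkd aleurone (log2 difference -3.30 ± 0.41 SE, limma, adjusted p = 0.00121). The gene mips2, of inositol phosphate synthesis, had 204, 217 and 319 against 437, 660 and 694, with a difference of 0.82 (limma, adjusted p = 0.133; 0.0404 on the RPM scale).

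Glutathione S-transferases attach glutathione to reactive compounds. Of 10 genes of this family past 10 RPM, 5 fell and 1 rose in nkd aleurone. Over all genes past 10 RPM 7.51% fell and 7.72% rose, and the family was put together after values were seen. Of the 5 that fell, 3 had an nkd mean under 10 RPM. Among the 288 are 2 of the 10, gst31 and gst5, and both fell. In nkd aleurone gst31 lay under 10 RPM in every library, so it reached that level through B73. The gene gst31 went from 43.0, 48.7 and 107 to 8.81, 3.19 and 9.63, a 12.9-fold fall (limma, adjusted p = 0.00144), and gst5 from 34.7, 52.3 and 112 to 14.5, 12.9 and 15.1, a 5.71-fold fall (adjusted p = 0.00272). The dehydroascorbate reductase gene dhar3 went from 154, 128 and 214 to 53.9, 60.0 and 75.2, a 3.55-fold fall (limma, adjusted p = 0.00532). The homocysteine methyltransferase gene hmt4 fell 4.28-fold, from 36.4, 25.1 and 66.3 to 16.6, 15.1 and 7.91 (limma, adjusted p = 0.0161), but not without B73 replicate 1 (0.0641) or 3 (0.0687).

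The largest fall of a named gene was that of mtl2, from 432, 191 and 734 in B73 to 64.3, 38.9 and 20.6 in nkd aleurone (14.5-fold; log2 difference -3.86 ± 0.59 SE, limma, adjusted p = 0.00299). ZCN10, of the protein family that includes the flowering signal FT, fell 5.94-fold, from 70.1, 86.7 and 189 to 42.7, 24.9 and 13.4 (limma, adjusted p = 0.00884). ZCN10 stands in the files under 2 identifiers, GRMZM2G059358 and GRMZM2G152689, with nearly the same values, and their reads cannot be told apart. Of the genes that did not pass, ACP had a difference of 0.52 and the sulfite reductase gene sir one of 0.60.

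The other 227 of the 288 genes have no name in the reference table, and 76 of them rose, 23 fell and 128 did not pass in aleurone. The largest rise was that of GRMZM2G062318, from 0.484, 1.01 and 0.460 to 88.3, 34.2 and 13.1 (log2 difference 5.29, limma, adjusted p = 0.00139). The largest falls were those of GRMZM2G054916, from 51.3, 19.6 and 92.7 to 1.30, 0.282 and 0.181 (log2 difference -7.12, limma, adjusted p = 0.000745), and GRMZM2G177792 (-6.75, adjusted p = 0.00161). With the starchy endosperm level taken as no less than 3 reads, the smaller ratio of these 3 genes was 1.36 to 1.55, so few reads decided that they met the rule. In all, 3 of the genes that fell had under 5 RPM in every nkd aleurone library, GRMZM2G054916 and GRMZM2G177792 among them. Of those that rose, 11 had under 5 RPM in every B73 aleurone library, GRMZM2G062318 among them. These genes reached the level of 10 RPM through 1 genotype only, so a difference was set by the selection.

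In starchy endosperm, where the levels of these genes were low, sus2, mtl2, dhar3 and 7 unnamed genes fell in nkd and none rose. Of the 288 genes 10 were called, all lower (3.47%), against a background of 1.78% called over 24582 genes, 0.464% higher and 1.31% lower. Over all genes past 10 RPM in aleurone these shares were 2.54%, 0.677% and 1.86%. Of the 10 called genes 9 were also lower in nkd aleurone. The same count over all genes was not made. The genotypes did not overlap in 19.1% of the 288 genes, against 21.3% of all genes. The median log2 difference was -0.30 over the 288 genes and 0.12 over all genes tested, and on the RPM scale these became 0.47 and 0.66. The median standard error of the difference was 0.95 for the 288 genes, wider than in aleurone.

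In starchy endosperm sus2 had 16.3, 122 and 26.4 RPM in B73 and 0.349, 7.22 and 5.04 in nkd, B73 replicate 2 being the highest (log2 difference -4.88, limma, adjusted p = 0.0334). The gene mtl2 had 20.3, 53.9 and 8.15 against 1.2, 1.75 and 6.22 (log2 difference -4.04, limma, adjusted p = 0.0208), and dhar3 had 22.2, 49.9 and 22.6 against 7.10, 19.4 and 17.6 (-2.06, adjusted p = 0.0442). With 1 library left out in turn, limma's adjusted p ran from 0.0435 to 0.106 for sus2, from 0.0202 to 0.111 for mtl2 and from 0.0742 to 0.163 for dhar3, and on the RPM scale none of the 3 passed. Of the 288 genes 0, 1 and 5 passed without B73 replicate 1, 2 and 3, and 6, 4 and 12 without nkd replicate 1, 2 and 3. The count was 21 with the replicate number as a block, 5 with edgeR and 27 with DESeq2.

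As a check of the label, the aleurone list of markers, with 7 matched genes, was summed. Of the 6 markers past 10 RPM 1, ole1, met the rule, and it was left out of the sum since it was selected for this difference. The sum over the other 6 genes was 861, 3654 and 3342 RPM in B73 aleurone against 150, 962 and 264 in B73 starchy endosperm, where aleurone replicate 1 lay below starchy endosperm replicate 2. In nkd it was 9379, 14243 and 3788 against 215, 333 and 887, without overlap. Most of this sum was the 1 gene vpp1, with 794, 3567 and 3232 RPM in B73 and 9091, 13983 and 3591 in nkd aleurone. The sum therefore describes vpp1 more than the list. The marker c1 had 0 RPM in every aleurone library. The lipid transfer protein gene ltp3 had ratios of 1.56 in B73 and 3.19 in nkd, and vpp1 had 0.87 and 4.55. The crinkly receptor kinase gene cr4 had 0.72 and 1.87, dek1 0.84 and 1.39 and sal1 1.11 and 0.78. Of the embryo markers lec1, kn1, nam1 and wus1 had means of at most 2.24 RPM in any group, while glb1 is among the 288 genes. Of 4 markers of the embryo-surrounding region 0 passed 10 RPM. Their sum was 0, 0.604 and 4.23 RPM in B73 and 0.592, 2.02 and 26.2 in nkd aleurone, replicate 3 being the highest. The part of such cells in that library was not tested. Of 7 markers of the maternal pericarp and nucellus 3 passed 10 RPM, none of them among the 288. The sum of these 7 was 61.2, 59.0 and 45.8 RPM in B73 and 188, 90.0 and 118 in nkd aleurone. Within it the expansin gene expa4 rose (log2 difference 2.67, limma, adjusted p = 0.00365) and expa1 fell (-2.64, adjusted p = 0.0442). The part of maternal cells in the genotype differences was not tested.

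Some of the 288 genes share reads or position. In 4 pairs, ZCN10 among them, both identifiers belong to 1 entry of the reference table. In 6 further pairs the genes are next to each other in the reference annotation, and in 3 of these pairs the log2 levels correlated at 0.998 or above over the 12 libraries. Reads of overlapping or near-identical genes cannot be told apart here, since neither the strand setting nor the handling of multi-mapped reads is stated.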

How the data were processed

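The authors deposited 2 tables of signal values, normalised reads per transcript, 1 for 6 aleurone and 1 for 6 starchy endosperm libraries. TopHat, DESeq and FastQC are named in the submitters' processing notes; the sources used here state no version, genome build, strand or multi-mapping handling. For every library, 100% of values were whole multiples of 1 step (tolerance 0.01), so reads were recovered. Genes with several transcripts were taken by the transcript of highest mean. Depth was 9570998 to 64000784 reads. Levels across cell types are in RPM over all genes, since each table has its own scale.

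Genotypes were compared within a cell type with limma 3.58.1 (trended, two-sided, Benjamini-Hochberg, threshold 0.05) on log2 of the deposited signal plus 1, where a gene's mean was 5 or more; fold changes on that scale understate low genes. Aleurone was not tested against starchy endosperm, since that contrast chose the genes. edgeR 4.0.16 and DESeq2 1.42.0 on recovered reads, other scalings, filters and pseudocounts, left-out libraries and a replicate block were alternatives. Fits were tested on simulated data. Software comprised matplotlib 3.10.9, numpy 2.4.6, pandas 2.3.3, Python 3.11.15 and R 4.3.3.

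The genes and lists were chosen with earlier results of these data known. Gene names are those of RefSeq (assembly Zm-B73-REFERENCE-NAM-5.0), whose table matched 243 of the 288 genes. The rule for named genes took the 8 highest, the 8 most enriched, the 8 largest rises and falls in aleurone (4 in starchy endosperm; mean of at least 50, no overlap), up to 4 per list, up to 6 transcription factors and those at the threshold. Only 6 of the 288 had a symbol, so synonyms were accepted as names after this was seen. A planned grouping by product and a promoter search were not run. Per the labels' protocols, each replicate number was 1 flow cell, so the numbers pair libraries; deviations of same-numbered libraries from their group means correlated at -0.13 to 0.068.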

Additional observations from a re-analysis of the deposited data

How the results depend on the processing

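The number of aleurone-enriched genes depended on the scaling and on single libraries: 165 with TMM factors (161 of the 288 among them), 75 at a fold of 3, 569 at a fold of 1.5, 122 at a level of 50 RPM and 471 at 1 RPM. With 1 library left out it was 288 to 544, and 956 without B73 starchy endosperm replicate 2 and nkd starchy endosperm replicate 3, an alternative chosen after seeing the data. Of the genes chosen without both, 35.1% were called in aleurone, and 42.4% of those on the TMM scale. The aleurone count of 121 was 77 to 113 with 1 library left out, 27 in 1 fit over all 12 libraries and 103 with the replicate number as a block. The starchy endosperm count of 10 was 0 to 12 with 1 library left out, 32 in 1 fit over all libraries, 27 with DESeq2, 5 with edgeR, 6 without a filter and 21 with the replicate block. With the block fad7 was the only one of the 22 named genes called in aleurone to lose its call. Among named genes bZIP7 changed direction on the RPM scale (0.37) and with 1 library left out (-0.41 to 0.30, with 0.018 and 0.10 without nkd aleurone replicate 1 or 2), as did fht1 with 1 library left out (-0.040 to 0.51). Neither was called in any of these, and the cause was not tested. Depth limits the ratios of genes near 1 RPM, above all in starchy endosperm.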
